A study of Mus musculus with 4 samples.

Results

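Chemokines are small secreted proteins that guide the movement of leukocytes, and their receptors are the heptahelical membrane proteins that read them. All genes were taken whose symbol is Ccl, Cxcl, Ccr, Cxcr or Ackr followed by a number, together with Xcl1, Xcr1, Cx3cl1, Cx3cr1, Pf4 and Ppbp, without regard to their signal. This gave 58 of the 22180 genes named on the array, 36 ligands and 22 receptors. The data are 4 Affymetrix whole-transcript arrays of RNA from the colon of C57BL/6 mice aged 3 months, 1 array for each of 4 groups: F/F tumour and wild-type tumour, and F/F normal colon and wild-type normal colon. F/F denotes CDX2; Dmt1F/F/ApcF/+ mice and wild-type denotes CDX2; Dmt1+/+/ApcF/+ mice, so that the CDX2 label and ApcF/+ are common to all 4 groups and only the Dmt1 alleles differ. Dmt1, also named Slc11a2, is an importer of iron, Apc is a tumour suppressor of the Wnt pathway, and F usually stands for a floxed allele. The labels name no Cre driver and no inducing treatment, and which of the 4 F/F and 7 wild-type animals of the design text went onto each array, pooled or single, is not stated. Without a second array in any group, a difference between 2 arrays has no measure of its error.

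Chemokines are grouped by the spacing of their first cysteines into CXC, CC, C and CX3C ligands. The CXC ligands that carry a glutamate-leucine-arginine (ELR) motif act on Cxcr2 and draw neutrophils. Cxcl9, Cxcl10 and Cxcl11 are induced by interferons and act on Cxcr3 of activated T and NK cells. Ligands such as Cxcl12, Cxcl13 and Ccl28 are made constantly and place lymphocytes in mucosa and lymphoid follicles. Atypical receptors bind chemokines without G protein signalling and remove or carry them.

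Slc11a2 had a log2 signal of 6.19 in F/F tumour and 6.64 in wild-type tumour, against 6.13 in F/F normal colon and 6.51 in wild-type normal colon, so it was lower on both F/F arrays, and the genotype difference did not pass in limma (-0.41, SE 0.12, adjusted p = 0.564). All 12 colon epithelium markers were above the median level of all genes (log2 4.67) on at least 1 array. Of 10 tested Wnt target genes, 8 rose in tumour and none fell. Genes listed as markers of position along the colon differed between tumour and normal arrays. Over 8 proximal genes the median of tumour minus normal was -3.89 in F/F and -2.31 in wild-type, with all 8 lower by 2-fold or more in each, and over 7 distal (posterior Hox) genes it was 1.45 in F/F and 1.14 in wild-type. They differed between the normal arrays too: F/F minus wild-type normal colon had a median of -0.88 over the distal genes and 1.57 over the proximal genes. Of the proximal genes, Fabp6 was under the median level on every array. Whether the tumour minus normal differences of the proximal and distal genes came from position or from the tumour itself was not tested. The part of position in the tumour and genotype results below was not tested. In whole tissue, fewer cells of a type and less RNA per cell cannot be told apart.

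Over both genotypes, CXC ligands made up most of the chemokine genes that rose in tumours. limma, fitted over the 4 arrays with tissue and genotype as additive terms, tested the 33 members whose highest value reached the median level of all genes. Of these, 7 rose in tumour (Cxcl5, Cxcl3, Cxcl1, Cxcl14, Cxcl9, Cxcl16 and the atypical receptor Ackr3), 2 fell (Ccl5 and Ccl9) and 24 did not pass at an adjusted p of 0.05. Among all 12060 genes tested, 11.0% rose and 8.23% fell. Among the tested members the shares were 21.2% and 6.06%. The other 25 members, below the median level on every array, were not tested, and 12 tested members reached that level on only some arrays, so the 33 are not a fair sample of the 58. With each array centred on its median, 7 members rose and 5 fell, after quantile normalization 6 rose and 4 fell, and after cyclic loess 6 rose and 3 fell. By family, 6 of 12 tested CXC ligands rose and none fell, 2 of 11 tested CC ligands fell and none rose, and 1 of 8 tested receptors rose. The CXC count holds Cxcl1 and Cxcl3, which reached the median level only in tumours. With a filter on the mean level Cxcl1 and Cxcl3 were not tested, and 5 members rose and 2 fell.

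**Figure D1:**
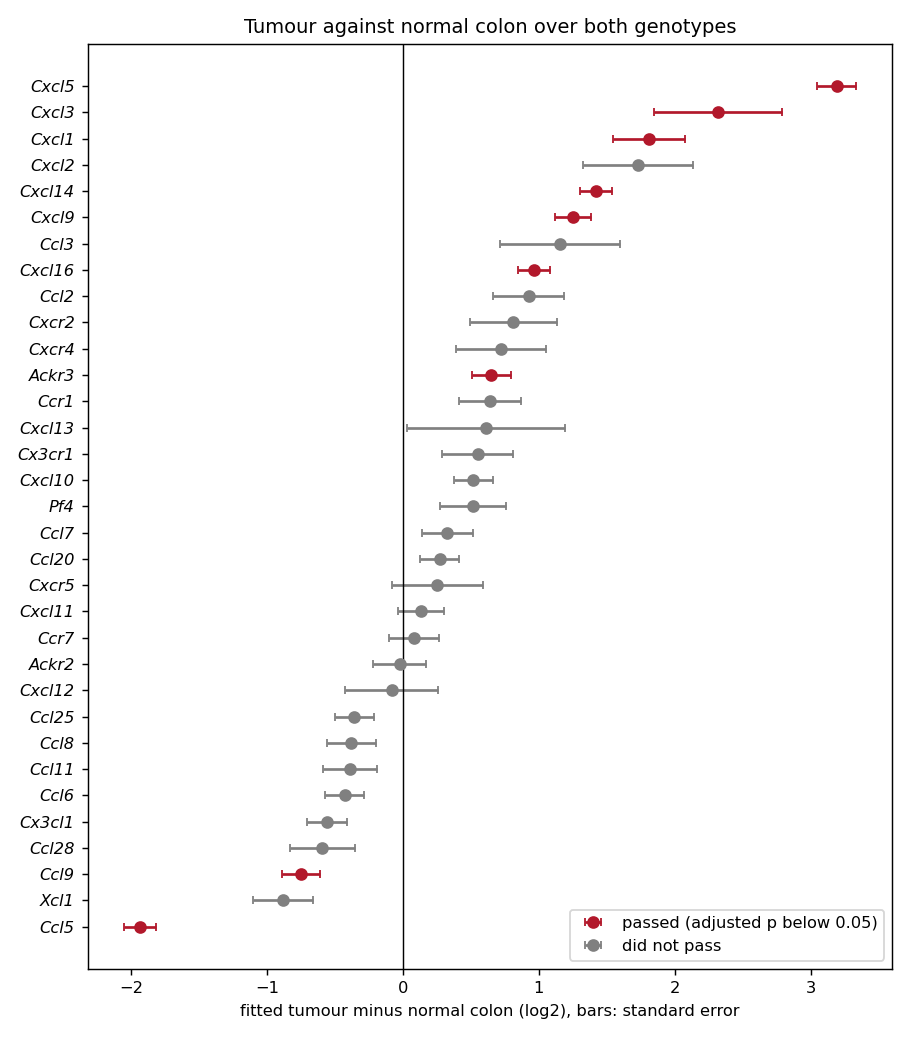
Fitted tumour minus normal colon difference (log2, horizontal axis) of the 33 tested members over both genotypes, with bars for the standard error from limma. Red points passed at an adjusted p of 0.05: 7 lie to the right of 0, led by Cxcl5 at 3.19, and 2 to the left, Ccl5 at -1.93 and Ccl9 at -0.75.

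Among the ELR ligands, Cxcl5, an epithelial neutrophil attractant, had log2 signals of 6.87 in F/F tumour and 8.18 in wild-type tumour, against 3.803 in F/F normal colon and 4.87 in wild-type normal colon. Both tumour arrays lay above both normal arrays, and Cxcl5 rose by 3.19 (SE 0.14, adjusted p = 0.00381). The difference was 3.07 in F/F and 3.31 in wild-type. F/F normal colon was under the median level of all genes, which stands in for background, so the F/F difference may understate the change. Cxcl3 stood at 4.04 in F/F tumour and 5.32 in wild-type tumour, against 2.42 in F/F normal colon and 2.31 in wild-type normal colon, and rose by 2.32 (SE 0.47, adjusted p = 0.0398). Cxcl1 stood at 4.89 in F/F tumour and 5.70 in wild-type tumour, against 3.39 in F/F normal colon and 3.58 in wild-type normal colon, and rose by 1.81 (SE 0.26, adjusted p = 0.0230). For both, the normal arrays were under the median level, so these differences too may understate the change. Cxcl3 reached that level only in wild-type tumour and Cxcl1 only in the tumours, so both entered the test through the arrays where they were high, and neither was tested with a filter on the mean level.

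Cxcl2, a further Cxcr2 ligand, stood at 5.34 in F/F tumour and 6.79 in wild-type tumour, against 4.40 in F/F normal colon and 4.28 in wild-type normal colon. It was higher in both tumours, by 0.94 in F/F and 2.51 in wild-type, and just missed the threshold (1.73, SE 0.40, adjusted p = 0.0522). It passed with arrays centred on their median (adjusted p = 0.0143) and with the mean of probe sets (0.0441). Cxcl2 has a single probe set, so under the mean of probe sets its own values were unchanged and only those of other genes moved. Ppbp, the precursor of a platelet chemokine, was under the median level on all arrays, at 4.12 in F/F tumour and 4.43 in wild-type tumour, against 3.03 in F/F normal colon and 3.13 in wild-type normal colon. Cxcl15, known from mouse lung, lay between 3.56 and 3.69 on the 4 arrays. Of the 6 ELR ligands, 4 were higher by 2-fold or more in F/F tumour against F/F normal colon (3.45% of all genes were) and 5 in wild-type tumour against wild-type normal colon (3.77% of all genes). Both counts hold Ppbp, and the F/F count also holds Cxcl3, which was under the median level on both F/F arrays.

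Along mouse chromosome 5 the members follow each other in the order Cxcl5, Ppbp, Pf4, Cxcl3, Cxcl15, Cxcl1 and Cxcl2 (RefSeq, GRCm38.p6). Over these genes the tumour minus normal difference ran from 0.03 (Cxcl15) to 3.07 (Cxcl5) in F/F and from -0.07 (Cxcl15) to 3.31 (Cxcl5) in wild-type, so neighbours did not share a size of difference. Sequences before the transcription start are shown for 5 members of chromosome 5 because they carry a word of the kind bound by NF-kappaB, the transcription factor of inflammatory signals. The words GGGAANTTC and GGGANTTTC, which overlap each other, were searched on both strands in the 250 bases before the start. One or both were in 8 of 48 member promoters (16.7%; 44 of the 58 members matched the table) and in 1.60% of all 32851 promoters. Besides the genes shown, these were Cxcr2, Ccr3 and Ccl1. Cxcl3, Cxcl1 and Cxcl2 share the letters GGGAATTTCCC, at bases 73 to 63, 71 to 61 and 97 to 87 before the start. A match describes letters, not binding. The interferon gamma activated word TTCNNNGAA was in 4 of 48 member promoters (8.33%), Ccl17, Ccr1l1, Cxcl14 and Ccr6, and in 7.02% of all promoters.

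The sequences are written 5′ to 3′ on the strand of the gene, with the searched word in capitals, and come from the RefSeq promoter table of GRCm38.p6. Cxcl3 covers chr5:90785981-90786100, Cxcl1 chr5:90891125-90891244 and Cxcl2 chr5:90903779-90903898, all on the plus strand and ending at the base before the start. Cxcl9 covers chr5:92328140-92328259 and Cxcl10 chr5:92348950-92349069, both on the minus strand, from base 180 to base 61 before the start.
Cxcl3: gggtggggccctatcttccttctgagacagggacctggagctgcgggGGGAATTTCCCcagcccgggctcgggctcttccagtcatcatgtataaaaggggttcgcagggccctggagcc
Cxcl1: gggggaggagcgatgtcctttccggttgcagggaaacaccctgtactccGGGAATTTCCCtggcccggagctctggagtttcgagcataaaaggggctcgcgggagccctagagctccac
Cxcl2: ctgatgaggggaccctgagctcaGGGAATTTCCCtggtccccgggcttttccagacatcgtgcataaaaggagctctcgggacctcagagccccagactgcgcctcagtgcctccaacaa
Cxcl9: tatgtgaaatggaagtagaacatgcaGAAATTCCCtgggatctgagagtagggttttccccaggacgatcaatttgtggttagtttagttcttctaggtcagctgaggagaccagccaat
Cxcl10: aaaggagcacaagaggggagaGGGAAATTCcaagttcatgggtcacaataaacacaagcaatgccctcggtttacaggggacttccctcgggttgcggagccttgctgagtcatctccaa

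**Figure D2:**
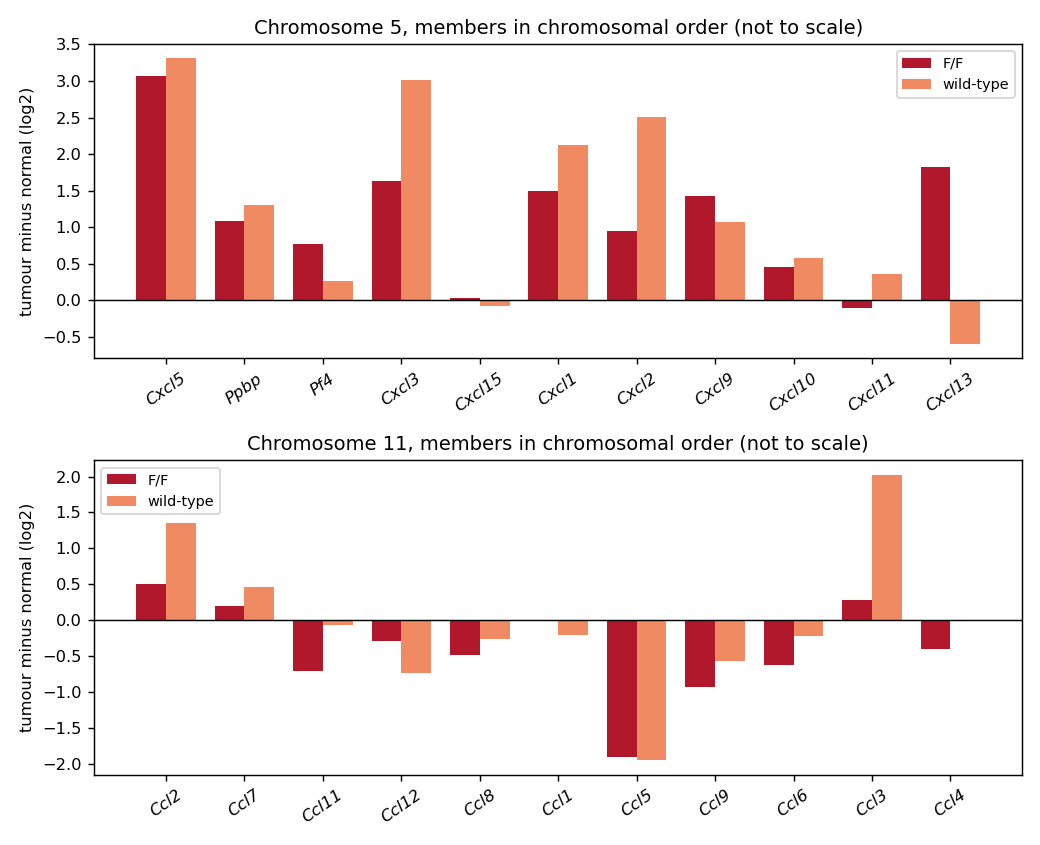
Tumour minus normal difference (log2, vertical axis) in F/F (dark bars) and wild-type mice (light bars) for members in their order along chromosomes 5 and 11, not to scale. On chromosome 5 Cxcl5 has the tallest bars (3.07 and 3.31), while Cxcl13 is at 1.82 in F/F and -0.60 in wild-type; on chromosome 11 Ccl5 lies at -1.91 and -1.96.

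The receptor of the ELR ligands, Cxcr2, stood at 4.45 in F/F tumour and 5.73 in wild-type tumour, against 4.18 in F/F normal colon and 4.38 in wild-type normal colon. Only wild-type tumour was well above the rest, and the difference did not pass (0.81, SE 0.32, adjusted p = 0.143). Cxcr1, which also binds some of these ligands, lay between 3.06 and 3.28 on all arrays. Of 14 neutrophil markers other than Cxcr2, 3 of 10 tested rose and none fell, against 11.0% and 8.23% of all tested genes. Those that rose, S100a8, Retnlg and Clec4d, reached the median level only in tumours, S100a8 only in wild-type tumour. They thus entered the test through the arrays where they were high. The 2-fold count was 6 of 14 higher in F/F tumour against F/F normal colon and 8 of 14 in wild-type tumour against wild-type normal colon. The summed linear signal of the 14 markers was 775 in F/F tumour and 851 in wild-type tumour, against 279 in F/F normal colon and 462 in wild-type normal colon. Ly6g alone gave 514 of this sum in F/F tumour and 288 in wild-type tumour, against 120 in F/F normal colon and 297 in wild-type normal colon. Without it the sum was 261 in F/F tumour and 562 in wild-type tumour, against 159 in F/F normal colon and 166 in wild-type normal colon, so that wild-type tumour stood highest. The alarmin S100a8 was at 4.34 in F/F tumour and 6.24 in wild-type tumour, against 3.26 in F/F normal colon and 3.72 in wild-type normal colon. The granule genes Ngp, Camp, Elane and Mpo were under the median level everywhere. The part of neutrophil content in the ELR ligand differences was not tested.

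Of the Cxcr3 ligands, Cxcl9 had log2 signals of 8.81 in F/F tumour and 9.66 in wild-type tumour, against 7.38 in F/F normal colon and 8.58 in wild-type normal colon. It rose by 1.25 (SE 0.14, adjusted p = 0.0147), but F/F tumour stood above wild-type normal colon by only 0.23. Cxcl10 was at 5.45 in F/F tumour and 6.33 in wild-type tumour, against 4.995 in F/F normal colon and 5.75 in wild-type normal colon, and did not pass (0.52, SE 0.14, adjusted p = 0.0704). Cxcl11 was at 5.58 in F/F tumour and 6.61 in wild-type tumour, against 5.68 in F/F normal colon and 6.24 in wild-type normal colon (0.13, SE 0.17, adjusted p = 0.598). In all 3 genes each wild-type array was above the F/F array of the same tissue. Their receptor Cxcr3 was not tested and lay between 4.08 and 4.18. Interferon gamma itself, Ifng, lay between 3.68 and 3.92, under the median level. Of 13 tested genes of the interferon gamma axis, none passed in tumour against normal colon in either direction, with Irf1 at -0.49 (adjusted p = 0.0517), Irf8 at -0.87 (adjusted p = 0.0604) and Ifngr1 at -0.43 (adjusted p = 0.101). In F/F minus wild-type normal colon 1 of 15 measured was above 0 (median -0.08). There 2 were lower by 2-fold (0.537% of all genes were), Gbp5 at -1.19 and Iigp1 at -1.04. In F/F minus wild-type tumour 5 of 15 were above 0 (median -0.14), with none 2-fold apart.

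Cxcl14, an epithelial chemokine, was at 7.59 in F/F tumour and 7.42 in wild-type tumour, against 6.13 in F/F normal colon and 6.03 in wild-type normal colon. Both tumour arrays lay above both normal arrays, the genotypes were close to each other in both tissues, and Cxcl14 rose by 1.42 (SE 0.12, adjusted p = 0.00987). Cxcl16, the membrane-bound ligand of Cxcr6, was at 7.501 in F/F tumour and 7.96 in wild-type tumour, against 6.57 in F/F normal colon and 6.96 in wild-type normal colon, and rose by 0.97 (SE 0.12, adjusted p = 0.0172). Cxcr6 was not tested, at 3.92 to 4.28. The stromal ligand Cxcl12 was at 5.85 in F/F tumour and 4.96 in wild-type tumour, against 5.27 in F/F normal colon and 5.70 in wild-type normal colon, with no common direction (-0.08, SE 0.34, adjusted p = 0.876). Its signalling receptor Cxcr4 was at 6.74 in F/F tumour and 6.20 in wild-type tumour, against 5.37 in F/F normal colon and 6.12 in wild-type normal colon (0.72, SE 0.33, adjusted p = 0.188). Its atypical receptor Ackr3, which takes Cxcl12 up, was at 5.85 in F/F tumour and 5.94 in wild-type tumour, against 5.19 in F/F normal colon and 5.30 in wild-type normal colon. Ackr3 rose by 0.65 (SE 0.14, adjusted p = 0.0447), a call that was lost with arrays centred on their median (adjusted p = 0.0543), after quantile normalization (0.0775), after cyclic loess (0.0645) and without the filter on level (0.0596).

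Cxcl13, which draws B cells into follicles, was at 10.14 in F/F tumour and 8.67 in wild-type tumour, against 8.33 in F/F normal colon and 9.26 in wild-type normal colon. F/F tumour was the highest array and F/F normal colon the lowest, so that tumour minus normal was 1.82 in F/F and -0.60 in wild-type, and over both genotypes the difference did not pass (0.61, SE 0.58, adjusted p = 0.482). Its receptor Cxcr5 had the same order of arrays, at 4.75 in F/F tumour and 4.14 in wild-type tumour, against 3.97 in F/F normal colon and 4.41 in wild-type normal colon. Only F/F tumour reached the median level of all genes, so the order of the other arrays is one of values near background. Of the B and plasma cell markers, none of 11 tested genes passed over both genotypes. In F/F tumour against F/F normal colon 8 of 13 were higher by 2-fold or more, and none of 13 in wild-type tumour against wild-type normal colon. The 8 were B cell genes. For the plasma cell markers Jchain, Mzb1, Xbp1 and Tnfrsf17 the F/F difference was 0.05 to 0.78. The summed linear signal of the whole list was 2184 in F/F tumour and 1574 in wild-type tumour, against 1125 in F/F normal colon and 1935 in wild-type normal colon. Without Jchain, the marker of highest signal, the sum was 1078 in F/F tumour and 540 in wild-type tumour, against 471 in F/F normal colon and 650 in wild-type normal colon. The follicle marker Cr2, also on the B cell list, was at 6.13 in F/F tumour and 3.798 in wild-type tumour, against 3.44 in F/F normal colon and 3.92 in wild-type normal colon. In F/F tumour minus wild-type tumour Cr2 was at 2.33 and Fcer2a, on both lists too, at 1.22. The other follicular dendritic and reticular markers, Madcam1, Tnfsf11, Pdpn, Clu and Tnfsf13b, lay between -0.16 and 0.31. Whether a lymphoid follicle in the sampled piece goes with the Cxcl13 difference was not tested. Of the remaining CXC ligands, Pf4 of platelets was at 4.81 in F/F tumour and 4.59 in wild-type tumour, against 4.04 in F/F normal colon and 4.32 in wild-type normal colon (adjusted p = 0.197), and the mucosal Cxcl17 lay between 4.26 and 4.56.

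**Figure D3:**
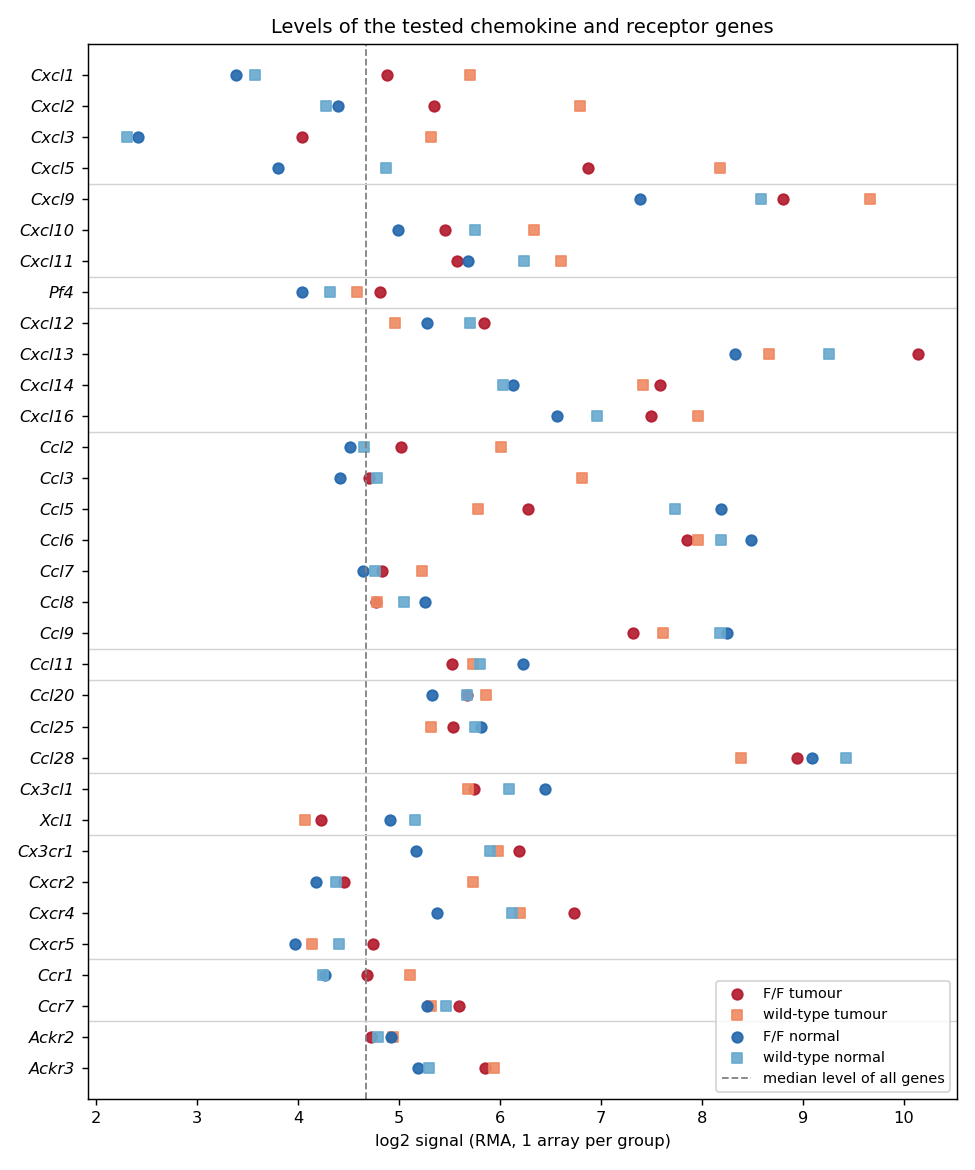
Log2 signal (horizontal axis) of the 33 tested members on the 4 arrays, ordered by group of ligands and receptors, with the median level of all genes (4.67) as a dashed line. For Cxcl5, Cxcl14 and Cxcl1 both tumour points lie right of both normal points, for Ccl5 left of them, and for Cxcl13 F/F tumour (10.14) stands apart on the right.

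Among inflammatory CC ligands, Ccl5, a product of T and NK cells, was at 6.28 in F/F tumour and 5.78 in wild-type tumour, against 8.19 in F/F normal colon and 7.74 in wild-type normal colon. Both tumour arrays lay below both normal arrays, and Ccl5 fell by 1.93 (SE 0.12, adjusted p = 0.00567), by like amounts in F/F (-1.91) and wild-type (-1.96). Of 10 tested T and NK cell markers 3 fell, none rose and 7 did not pass. Over the 14 measured, the median of tumour minus normal was -0.23 in F/F and -0.37 in wild-type, and 6 were above 0 in F/F and 2 in wild-type, so the list did not move as a whole. Their summed linear signal was 365 in F/F tumour and 299 in wild-type tumour, against 576 in F/F normal colon and 449 in wild-type normal colon. The granzyme Gzma fell by 2.46 and the T cell receptor component Cd3g by 0.999, while the helper T cell marker Cd4 was at 1.24 in F/F and -0.05 in wild-type. Without Gzma, which had the highest signal of the list, the sum was 347 in F/F tumour and 277 in wild-type tumour, against 437 in F/F normal colon and 364 in wild-type normal colon. The part of these cells in the Ccl5 difference was not tested. Ccl9, a Ccr1 ligand of the mouse, was at 7.32 in F/F tumour and 7.61 in wild-type tumour, against 8.25 in F/F normal colon and 8.18 in wild-type normal colon, and fell by 0.75 (SE 0.14, adjusted p = 0.0346). Without the variance trend it did not pass (adjusted p = 0.0554). The related Ccl6 was at 7.86 in F/F tumour and 7.96 in wild-type tumour, against 8.48 in F/F normal colon and 8.19 in wild-type normal colon (-0.43, SE 0.15, adjusted p = 0.108).

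Ccl3, a macrophage and neutrophil product, was at 4.71 in F/F tumour and 6.81 in wild-type tumour, against 4.42 in F/F normal colon and 4.78 in wild-type normal colon. Only the wild-type tumour array stood apart, so the difference over both genotypes did not pass (1.16, SE 0.44, adjusted p = 0.136). The monocyte attractant Ccl2 was at 5.02 in F/F tumour and 6.01 in wild-type tumour, against 4.52 in F/F normal colon and 4.66 in wild-type normal colon, higher in both tumours but not past the threshold (0.93, SE 0.26, adjusted p = 0.0749). Its relatives Ccl7 (0.33) and Ccl8 (-0.38) did not pass, and Ccl4 and Ccl12 were not tested. Most macrophage and monocyte markers were higher in tumours, 12 of 14 in F/F and 13 of 14 in wild-type. Of 12 tested, 4 rose and none fell, against 11.0% and 8.23% of all tested genes. Their summed linear signal was 1359 in F/F tumour and 1617 in wild-type tumour, against 681 in F/F normal colon and 974 in wild-type normal colon. Without Lyz2, the marker of highest signal, the sum was 913 in F/F tumour and 960 in wild-type tumour, against 487 in F/F normal colon and 666 in wild-type normal colon.

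The ligands of eosinophils and T helper 2 cells were mostly near background: Ccl1, Ccl17, Ccl22, Ccl24 and Ccl26 were under the median level on every array. The eosinophil attractant Ccl11 was at 5.53 in F/F tumour and 5.73 in wild-type tumour, against 6.23 in F/F normal colon and 5.81 in wild-type normal colon (adjusted p = 0.227). Among epithelial CC ligands, Ccl28, which draws IgA plasma cells through Ccr10, was at 8.94 in F/F tumour and 8.39 in wild-type tumour, against 9.09 in F/F normal colon and 9.43 in wild-type normal colon. Both tumours were lower, by -0.15 in F/F and -1.04 in wild-type, with no call (-0.59, SE 0.24, adjusted p = 0.147). Ccl20, the ligand of Ccr6, lay between 5.33 and 5.87, and Ccl25, the ligand of Ccr9, between 5.31 and 5.81, and neither passed. Ccl27a, a Ccr10 ligand, was not tested. Ccl19, Ccl21a, Ccl21b, Ccl21c, Ccl21d and Ccl27b share probe sets with other genes and are not analysed here.

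The C chemokine Xcl1, a product of T and NK cells, was at 4.23 in F/F tumour and 4.07 in wild-type tumour, against 4.91 in F/F normal colon and 5.16 in wild-type normal colon. It was lower in both tumours and did not pass (-0.88, SE 0.22, adjusted p = 0.0598), though it did under 4 alternatives, with adjusted p between 0.0230 and 0.0487. The CX3C chemokine Cx3cl1, tethered to epithelium and endothelium, was at 5.75 in F/F tumour and 5.68 in wild-type tumour, against 6.45 in F/F normal colon and 6.09 in wild-type normal colon. It did not pass either (-0.56, SE 0.15, adjusted p = 0.0662), while the 3 other scalings gave adjusted p between 0.0351 and 0.0464.

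Of the 22 receptors, 14 were under the median level on every array, namely Ccr1l1, Ccr2, Ccr3, Ccr4, Ccr6, Ccr8, Ccr9, Ccr10, Cxcr1, Cxcr3, Cxcr6, Xcr1, Ackr1 and Ackr4, and Ackr3 alone of the 8 tested passed. Ccr1, the receptor of Ccl3, Ccl5 and Ccl9, was at 4.68 in F/F tumour and 5.11 in wild-type tumour, against 4.26 in F/F normal colon and 4.25 in wild-type normal colon (0.64, SE 0.23, adjusted p = 0.116). Cx3cr1 of resident macrophages was at 6.19 in F/F tumour and 5.98 in wild-type tumour, against 5.16 in F/F normal colon and 5.90 in wild-type normal colon, where F/F normal colon was the low array. Ccr7, the receptor of lymph node homing, lay between 5.28 and 5.60, and Ackr2, which degrades inflammatory CC ligands, between 4.73 and 4.94. Neither passed.

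Within each genotype, differences of 2 single arrays were counted at a log2 size of 1 or more (2-fold) over all 58 members. In F/F tumour against F/F normal colon 9 members were higher (3.45% of all genes were) and 1 was lower (2.28% of all genes): Cxcl5, Cxcl13, Cxcl3, Cxcl1, Cxcl14, Cxcl9, Cxcr4, Ppbp and Cx3cr1 were higher and Ccl5 lower. In wild-type tumour against wild-type normal colon 11 were higher (3.77% of all genes) and 3 lower (3.07% of all genes): Cxcl5, Cxcl3, Cxcl2, Cxcl1, Ccl3, Cxcl14, Ccl2, Cxcr2, Ppbp, Cxcl9 and, right at the limit, Cxcl16 were higher, and Ccl5, Xcl1 and Ccl28 lower. The median over members was 0.23 in F/F and 0.05 in wild-type, and over all genes -0.03 in F/F and 0.00 in wild-type. These comparisons share no array. In both, 6 members were higher by 2-fold (10.3%, against 2.01% of all genes) and 1 lower (1.72%, against 1.42% of all genes). The sign was the same for 40 of 58 (69.0%), close to the 68.6% of all genes. Pearson's r between the comparisons was 0.676 over the 58 members (Spearman's rho 0.540) and 0.720 over all genes, as a description across genes of arrays normalized together. With the other genotype's normal array as baseline, 5 members were higher and 2 lower in F/F tumour, and 12 higher and 1 lower in wild-type tumour.

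**Figure D4:**
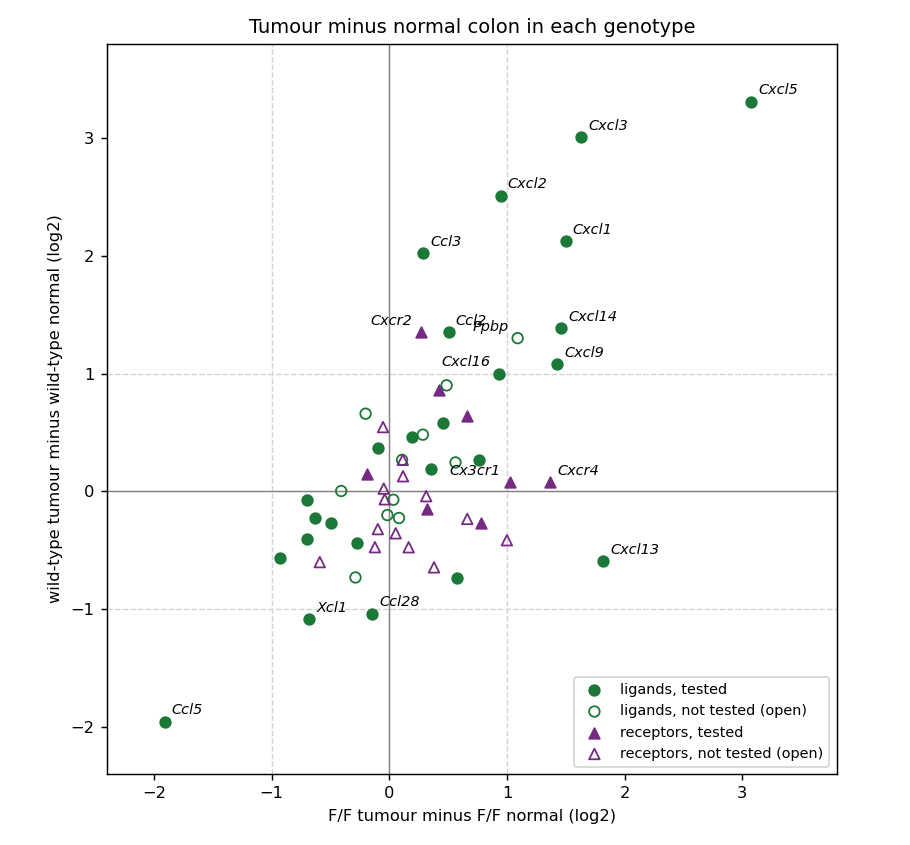
Tumour minus normal colon (log2) in F/F mice (horizontal axis) and wild-type mice (vertical axis) for the 58 members, ligands as circles and receptors as triangles, open where not tested, with dashed lines at 2-fold. Cxcl5 lies far out on both axes (3.07 and 3.31), Ccl3 and Cxcr2 high only on the wild-type axis (2.02 and 1.35), and Cxcl13 on opposite sides of 0 (1.82 and -0.60).

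In F/F tumour against wild-type tumour, a comparison of 2 single arrays, Ccl3, 3 ELR ligands, their receptor Cxcr2 and Cxcl11 were lower, and Cxcl13 was higher. By count, 6 members were lower by 2-fold or more (0.325% of all genes were) and 1 was higher (1.01% of all genes). Ccl3 was lower by -2.10, Cxcl2 by -1.45, Cxcl5 by -1.31, Cxcr2 by -1.28, Cxcl3 by -1.27 and Cxcl11 by -1.03, whereas Cxcl13 was higher by 1.48. For Cxcr2 and Cxcl3 the F/F tumour array was under the median level of all genes, so these 2 differences may understate the gap. Of the 9 inflammatory CC ligands only Ccl3 was 2-fold apart (median -0.29), and Ccl5 was at 0.50. Ccl2 (-0.99), Cxcl10 (-0.88), Cxcl9 (-0.85) and Cxcl1 (-0.82) were short of 2-fold. The median over the 58 members was -0.04 and over all genes -0.01. Neutrophil markers were lower too: 7 of 14 were lower by 2-fold or more and none higher, with S100a8 at -1.90 and the receptor Csf3r at -1.12, while Ly6g was at 0.83. Of the B and plasma cell markers, 7 of 13 were higher by 2-fold or more and none lower, with the surface protein Ms4a1 at 2.65. These were B cell genes, and the plasma cell markers Jchain, Mzb1, Xbp1 and Tnfrsf17 lay between -0.07 and 0.29. None of the 14 macrophage and monocyte markers was 2-fold apart. Of the 12 colon epithelium markers, 5 were higher by 2-fold or more in F/F tumour and none lower, with the water channel Aqp8 at 2.46, the chloride exchanger Slc26a3 at 2.12 and Cdx2 at 1.39. All 8 smooth muscle markers were above 0 (median 0.64), none by 2-fold. The part of these cells in the chemokine differences was not tested.

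In F/F normal colon against wild-type normal colon, no member was higher by 2-fold or more (0.482% of all genes were) and 2 were lower (0.537% of all genes), Cxcl9 by -1.20 and Cxcl5 by -1.07. Cxcl13 (-0.94), Cxcl10 (-0.76), Cxcr4 (-0.75) and Cx3cr1 (-0.74) were also lower, and Ccl5 was the highest member at 0.45. The median was -0.13 over the members and 0.02 over all genes. These values compare pieces whose position markers differed.

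For the genotype term over both tissues, limma called no member and no gene (0% of 12060), and the lowest adjusted p among members was 0.506. At an unadjusted p of 0.05, 7 members passed, against 8.22% of all tested genes. Lower in F/F in both tissues were Cxcl5 (-1.19, SE 0.14), Cxcl9 (-1.03, SE 0.14), Cxcl10 (-0.82, SE 0.14), Cxcl11 (-0.80, SE 0.17), Ccl3 (-1.23, SE 0.44) and Cxcl16 (-0.42, SE 0.12), and higher was Ccl5 (0.48, SE 0.12). Adjusted p for these 7 lay between 0.506 and 0.595. The labels do not say whether tumour and normal colon were taken from the same mice, and this term holds no spread between mice.

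**Figure D5:**
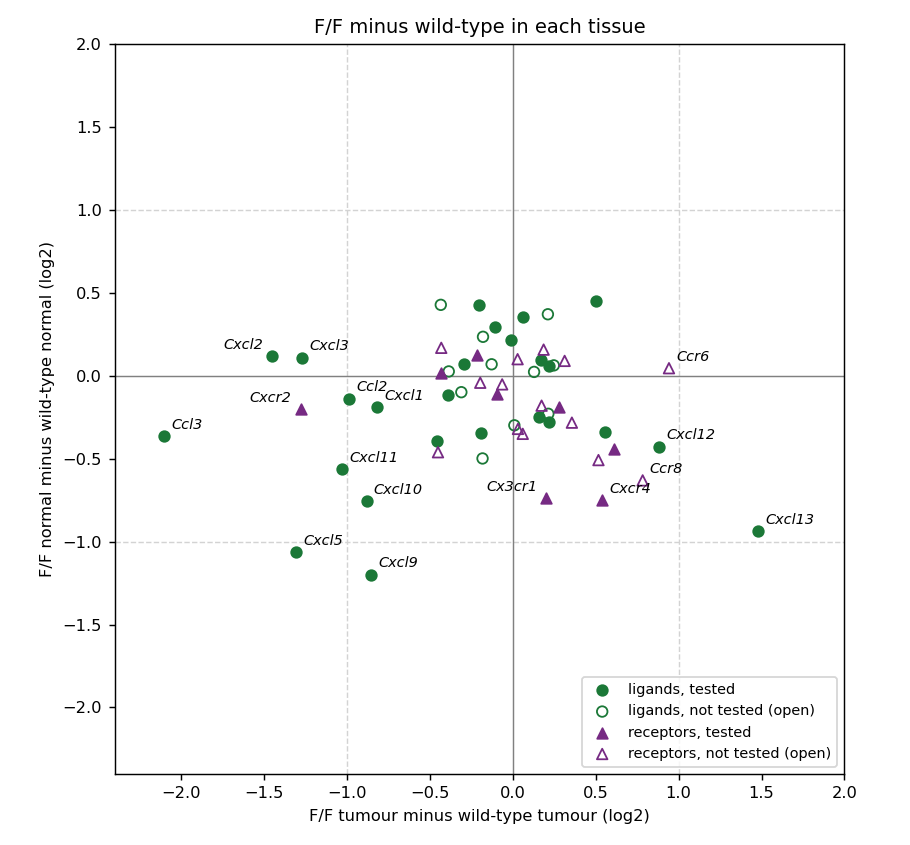
F/F minus wild-type (log2) in tumour (horizontal axis) and normal colon (vertical axis) for the 58 members, with symbols as in the plot of tumour minus normal. Ccl3 lies at -2.10 and Cxcl2 at -1.45 on the tumour axis with small values in normal colon, Cxcl5 and Cxcl9 are low on both axes, and Cxcl13 is at 1.48 in tumour and -0.94 in normal colon.

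Genes that induce, transmit or accompany chemokine signals were counted from 3 further lists. Of 15 tested cytokine and NF-kappaB genes, 5 rose in tumour and none fell: Il1a, Il1b, Tnf, the adhesion molecule Icam1 and the NF-kappaB subunit Rela. Among all tested genes, 11.0% rose and 8.23% fell. Il1a reached the median level only in tumours, so it entered the test through the arrays where it was high. Icam1, which holds leukocytes to endothelium, rose by 1.36 (SE 0.14, adjusted p = 0.0136), Il1b by 2.68 (SE 0.30, adjusted p = 0.0150) and Tnf by 1.07 (SE 0.15, adjusted p = 0.0217). In F/F tumour against wild-type tumour 4 of the 24 measured were lower by 2-fold or more (0.325% of all genes were), with Il1b at -2.02 and Tnf at -1.11. Of 27 tested genes of signal transduction behind the receptors, 1 rose, the exchange factor Vav1 (0.86, SE 0.17, adjusted p = 0.0372), and 1 fell, the arrestin Arrb1 (-0.76, SE 0.13, adjusted p = 0.0294). Of 11 tested genes of other attractants and regulators, 4 rose and none fell, with Cmtm7 at 1.28 (SE 0.15, adjusted p = 0.0165), the cytokine Mif at 1.22 (SE 0.19, adjusted p = 0.0245) and the lipid receptor S1pr1 at 0.88 (SE 0.16, adjusted p = 0.0314). Cmtm3, also among the 4, reached the median level only in tumours.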

How the data were processed

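The values are log2 signals per probe set as deposited by the authors, which the submitters' processing notes credit to oligo and RMA; versions are not given in the sources used here. RMA gives no detection call. The array medians lay between 4.27 and 4.34, so the arrays did not share one distribution exactly. Probe sets were named from the platform annotation, and symbols were updated by gene ID through RefSeq (GRCm38.p6). Of 41345 probe sets, 23521 had a single gene, 1814 several and 16010 none, and 23328 gene IDs matched. Where a gene had several probe sets, that of highest mean stood for it (among members, only Ccl27a). Columns of other samples numbered 0.

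limma 3.58.1 (R 4.3.3) fitted tissue and genotype additively with a variance trend to the 12060 of 22180 genes whose highest value reached log2 4.67, the median of all genes' means, with two-sided Benjamini-Hochberg adjustment at 0.05. The residual is the tissue by genotype term, with 1 degree of freedom plus 3.4 prior ones, so a call does not show equal differences in both genotypes. The fit was tested on simulated data. Comparisons of 2 arrays have no test. Signals of related genes may cross-hybridise, which was not examined. All tested or measured members could be named. Of the 3 pathway lists and the interferon gamma axis, up to 3 genes with the smallest adjusted p were named. Il1a, Rela, Cmtm3, Ifng, Gbp5, Iigp1 and the single markers of cell types and position were named after their values were seen. Marker lists leave out members: cell types (neutrophil, macrophage, dendritic, T and NK, B and plasma, follicular, eosinophil and mast cell, platelet, endothelium, fibroblast, smooth muscle, epithelium), Wnt targets and position. Members and lists were chosen with earlier results of these data known. The planned protein motifs were not analysed here. Precision is limited by having 1 array per group.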

Additional observations from a re-analysis of the deposited data

Results flagged for a closer look

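In 2 members tumour minus normal had opposite signs in the genotypes, each with a size of 0.5 or more. For Cxcl13 it was 1.82 in F/F and -0.60 in wild-type, a gap of 2.41. For Cxcl12 it was 0.57 in F/F and -0.74 in wild-type, a gap of 1.31. With 1 array per group these differences between genotypes were not tested. After each of the 3 scalings between arrays Cxcl13 still met this description and Cxcl12 did not.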

How the results depend on the processing

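The count of members called for tumour against normal stayed between 7 and 12 around the reported 9, over the mean of probe sets, 3 scalings, 2 filters on level, no trend and robust eBayes. Gained calls were Cxcl2, Xcl1, Cx3cl1, Ccl28 and, without the filter, Ppbp (1.20, adjusted p = 0.0202). Lost calls were Ackr3 and Ccl9, at the adjusted p given in the report, while Cxcl1 and Cxcl3 were not tested with the filter on the mean level. No member was called for genotype under any of these, and the lowest adjusted p was 0.114, with arrays centred on their median. That centring moved the median of all genes in F/F tumour minus F/F normal from -0.03 to -0.15, and the share of all calls that rose was 44.7%, 47.5% after quantile normalization and 46.4% after cyclic loess, against 57.3% as reported. The counts of members 2-fold apart changed by over 1.5 times only with the threshold. At 1.5-fold they were 23 in F/F tumour against F/F normal, 23 in wild-type tumour against wild-type normal, 15 in F/F tumour against wild-type tumour and 7 in F/F normal against wild-type normal. At 3-fold they were 4, 6, 1 and 0. The 2 members of opposite sign became 1 under each scaling. The cause of these changes was not tested. Sums of marker lists without their highest marker, given in the report, were chosen after seeing the data. No array could be left out, since the fit to 3 arrays has no residual.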

Other observations

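Markers of other cells that make or answer chemokines are given mainly as counts. Among all tested genes 11.0% rose and 8.23% fell. Of 4 tested dendritic cell markers 2 rose in tumour, Itgax and Fscn1, and none fell. Both reached the median level only in tumours, while Flt3 and Zbtb46 were not tested. Of 4 tested eosinophil and mast cell markers 3 rose, the mast cell genes Cpa3, Mcpt1 and Mcpt2, and 1 fell, Kit. Mcpt2 reached the median level only in wild-type tumour. The eosinophil genes Siglecf, Epx, Prg2 and Il5ra were under that level on every array and not tested. Of 4 tested follicular dendritic and reticular cell markers 1 rose, Clu. The platelet list had 1 tested gene, which did not pass, and 4 of its 5 measured genes were under the median level on every array, as was Ppbp. Of 9 tested endothelial and lymphatic markers 2 rose, Cdh5 (1.19) and Prox1 (4.68), while the lymphatic marker Lyve1 was at 0.20 and did not pass. Which cells gave the Prox1 and Clu signals was not tested. Of 10 fibroblast markers 7 rose and 1 fell, and of 8 smooth muscle markers 1 fell. Of 12 colon epithelium markers 5 fell and none rose. Smooth muscle markers were all 8 lower by 2-fold or more in wild-type tumour against wild-type normal colon and none of 8 in F/F tumour against F/F normal colon; the difference was not tested. Of 7 distal position markers 3 rose, and of 7 tested proximal markers 6 fell.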
